A study of Mus musculus with 14 samples.

Results

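The regions described here are binding sites of the pluripotency factors NANOG and OCT4 in mouse embryonic stem (ES) cells at which no SIM2 peak and no Mediator peak was called. They were selected by measured values, namely the positions of called peaks: a NANOG peak with an OCT4 peak within 100 bp, with no SIM2 peak of any of 3 clones and no MED1 or MED12 peak within 100 bp, counted from interval to interval. Of 14815 NANOG peaks, 2395 had an OCT4 peak, 1343 of these had no SIM2 peak, and 191 of the latter had Mediator. The remaining 1152 peaks are called SIM2-free here. They made up 48.1% of the OCT4-NANOG peaks and 7.78% of all NANOG peaks. Of the 1052 OCT4-NANOG peaks with SIM2, 456 (43.3%) had Mediator, against 14.2% of the 1343 without SIM2. The set used for comparison is the 596 OCT4-NANOG peaks that had a SIM2 peak and no Mediator, called SIM2-bound. Of these, 292 had SIM2 in 1 clone, 189 in 2 and 115 in 3.

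The cells were derived from EBRTcH3 (EB3), a mouse ES line of the tetracycline-off type. Clones A6, B8 and C4 each carry a FLAG-tagged mouse Sim2 gene with an IRES-Venus reporter, driven by the hCMV*-1 promoter and switched on by taking tetracycline away, and EB3 itself lacks the transgene. All cultures were kept without tetracycline for 26 h, and each clone is 1 line with 1 culture. SIM2 was precipitated through the FLAG tag in the 3 clones, and EB3 was the authors' control. The paper left out EB3 peaks and kept SIM2 sites found in at least 2 clones. Here no EB3 peaks were removed, and a SIM2 peak in 1 clone was enough, as for 292 of the 596 SIM2-bound peaks. The NANOG, OCT4, MED1 and MED12 lists used here are those of clone A6, 1 library each, from the same cross-linked pellets. The paper also describes these precipitations in EB3, and a SOX2 precipitation, which were not used here. The NANOG and OCT4 values below thus all come from cells in which the Sim2 transgene was switched on. The FLAG libraries were prepared from less starting DNA than the others. The deposited lists give no read totals. On the peak caller's usual scale of 10 M tags, the steps between them correspond to 12.9 M tags for NANOG, 31.5 M for OCT4, and 23.3, 14.7 and 13.6 M for SIM2 in A6, B8 and C4. SIM2 of A6, B8 and C4 lay at 892, 738 and 251 OCT4-NANOG peaks, so a peak counts as SIM2-free only within the reach of these libraries.

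OCT4 (Pou5f1) is a POU-domain factor that binds with the HMG-box factor SOX2 at a composite element, and NANOG is a homeodomain factor. Together they occupy enhancers that hold ES cells in the pluripotent state. SIM2 is a bHLH-PAS factor that pairs with ARNT and recognizes sites with a short core sequence. Mediator, with its subunits MED1 and MED12, connects enhancers with RNA polymerase II, and its dense occupancy marks the strongest enhancers of ES cells. Part of the OCT4 and NANOG sites of mouse ES cells are known to lie in repeated elements of retroviral origin.

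That SIM2 keeps away from OCT4-NANOG sites is not what the lists show. Without Mediator, 596 of 1748 OCT4-NANOG peaks (34.1%, 95% Wilson interval 31.9 to 36.4) had SIM2, against 1027 of 12034 NANOG peaks (8.53%, 8.05 to 9.05) that had neither OCT4 nor Mediator. The 1152 peaks are therefore described by the absence of a called peak and not as sites that SIM2 avoids. Their median gap to a SIM2 peak, a distance the selection itself bounds from below, was 239 kb. Those nearest to the limit, near Mctp2, Gm10116 and Paqr3, had SIM2 at 101, 107 and 117 bp, and the SIM2-bound peaks farthest inside it, near Aebp2, Vrk1 and C230029F24Rik, had SIM2 at 83, 83 and 78 bp. Intervals in the following text are 95% intervals over peaks of 1 library. They cover counting error only, since peaks are not replicates of a condition.

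The sequences are given in the mouse build NCBIM37 (mm9), 5′ to 3′, with matches to the named motifs in capitals. The window of 200 bp around the NANOG centre is shown for the SIM2-free peak with the most NANOG tags (near Prickle1), which held no match to the octamer, the composite, the SIM-ARNT core or the TEAD motif. The SIM2-bound peak with the most NANOG tags, near Ctnnd2, stands beside it with its TEAD matches.
Prickle1, chr15:93351629-93351828, + strand: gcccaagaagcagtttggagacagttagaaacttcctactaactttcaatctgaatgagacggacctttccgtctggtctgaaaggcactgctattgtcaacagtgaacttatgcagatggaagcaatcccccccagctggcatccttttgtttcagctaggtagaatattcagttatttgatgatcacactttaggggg
Ctnnd2, chr15:30312944-30313143, + strand: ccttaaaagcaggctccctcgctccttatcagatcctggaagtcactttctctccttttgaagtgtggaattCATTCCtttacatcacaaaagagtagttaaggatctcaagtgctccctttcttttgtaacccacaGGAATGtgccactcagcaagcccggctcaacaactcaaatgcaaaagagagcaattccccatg

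The composite, whose share was higher in the SIM2-free set, is shown next in its context. The OCT4-SOX2 composite (TTGTNATGC) of 3 SIM2-free peaks, near Vwc2, Gp49a and Col14a1, is set beside that of 2 SIM2-bound peaks, near Diap3 and Ncam2.
Vwc2, chr11:10237914-10237938, + strand: atttagtaTTGTCATGCacttaaac
Gp49a, chr10:50958097-50958121, + strand: gttggccaTTGTAATGCctgatgtt
Col14a1, chr15:55149622-55149646, + strand: gtcaactaTTGTCATGCagcaactg
Diap3, chr14:86796038-86796062, - strand: tagtcctcTTGTCATGCatgcggat
Ncam2, chr16:81481506-81481530, + strand: gcctgcctTTGTTATGCacagacag

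The SIM-ARNT core (ACGTG) is rare in SIM2-free peaks. It is shown for the 2 strongest SIM2-free peaks that held it, near Tsx and Col14a1, and for the 2 strongest SIM2-bound peaks with it, near Btbd11 and Gm5089.
Tsx, chrX:100667941-100667965, - strand: tgccttttgtACGTGcaaatgaccc
Col14a1, chr15:55149609-55149633, - strand: acaatagttgACGTGtggcatttaa
Btbd11, chr10:84914598-84914622, - strand: aataatgagcACGTGtgtttatgca
Gm5089, chr14:122833406-122833430, + strand: tcctccttttACGTGctcagccatc

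Many of these regions are copies of each other. The composite of the largest sequence family among the OCT4-NANOG peaks is shown with 26 bases on either side, for 4 SIM2-free members and 3 SIM2-bound members on 6 different chromosomes, so that the copies can be compared directly. These 7 are among the more alike copies, at 78.3 to 92.2% identity to the most frequent base of the family.
Ahr, chr12:36327405-36327465, + strand: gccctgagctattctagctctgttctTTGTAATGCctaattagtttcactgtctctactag
Gm7536, chr3:24905955-24906015, + strand: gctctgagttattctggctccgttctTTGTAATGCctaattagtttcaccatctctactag
Fhit, chr14:11872253-11872313, + strand: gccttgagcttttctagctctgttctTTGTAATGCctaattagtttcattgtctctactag
Dab2, chr15:5845958-5846018, + strand: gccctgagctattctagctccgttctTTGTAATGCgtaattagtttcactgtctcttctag
Smc2, chr4:51881692-51881752, - strand: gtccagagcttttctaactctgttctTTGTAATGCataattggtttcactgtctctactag
Cbln4, chr2:171704977-171705037, + strand: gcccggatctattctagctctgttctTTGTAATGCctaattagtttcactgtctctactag
Vmn2r3, chr3:64126052-64126112, + strand: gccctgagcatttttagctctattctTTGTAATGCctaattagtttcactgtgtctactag

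NANOG and OCT4 were both somewhat lower at SIM2-free peaks than at SIM2-bound peaks, with wide overlap. The NANOG normalized tag count ranged from 2.3 to 54.2 over the SIM2-free peaks, with a median of 11.6 (interval 11.6 to 12.4), and from 3.1 to 49.6 over the SIM2-bound peaks, with a median of 14.3 (13.9 to 14.7). The median of all NANOG peaks was 6.2, so the SIM2-free peaks were strong NANOG sites. The shift between the sets (Hodges-Lehmann estimate) was -0.27 on the log2 scale (-0.35 to -0.20), or 0.827 times the SIM2-bound level. The OCT4 tag count ranged from 1.6 to 15.2 at SIM2-free peaks (median 5.1) and from 1.6 to 13 at SIM2-bound peaks (median 5.4), a log2 shift of -0.15 (-0.21 to -0.11). As fold over the input, the OCT4 median was 4.89 at SIM2-free and 5.39 at SIM2-bound peaks, and the lowest value of the OCT4 list was 4.05. Many SIM2-free peaks thus lay close to the lower limit of OCT4 peak calling. Against the SIM2-bound peaks of each clone in turn, the NANOG shift was -0.27 for A6, -0.27 for B8 and -0.35 for C4, a mean of -0.30 ± 0.04 (SD, n = 3 clones), and the OCT4 shift was -0.16, -0.21 and -0.23, a mean of -0.20 ± 0.04. All 3 clones gave the same direction, but they share 1 NANOG library, 1 OCT4 library and 1 SIM2-free set, and their SIM2-bound peaks overlap. An exact sign-flip test over 3 clones cannot go below p = 0.25. When NANOG was read as fold over its local background in place of tags, the log2 shift was only -0.11 (-0.19 to -0.04). Against all 1052 OCT4-NANOG peaks with SIM2, Mediator included, the tag count shifts were larger. They were -0.49 (-0.54 to -0.42) for NANOG and -0.28 (-0.31 to -0.23) for OCT4.

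**Figure D1:**
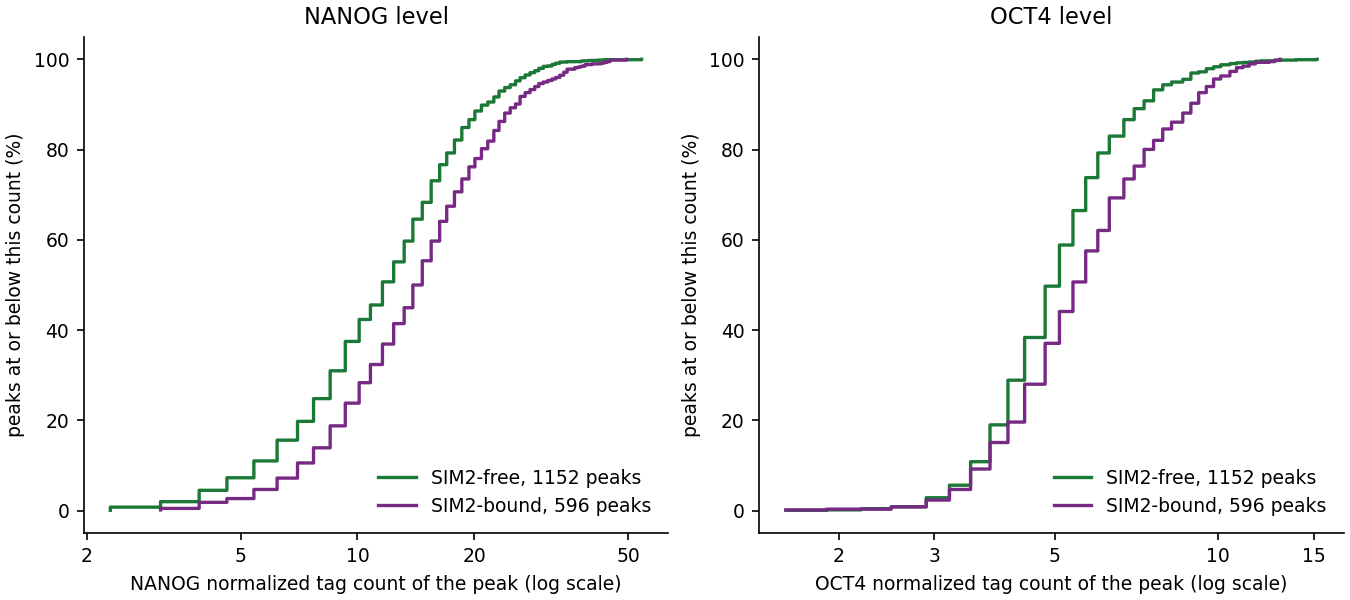
Cumulative share of peaks (%) against the normalized tag count of the peak on a log axis, for NANOG (left) and OCT4 (right). The SIM2-free curve (1152 peaks, green) lies to the left of the SIM2-bound curve (596 peaks, purple) over most of the range, with medians of 11.6 and 14.3 NANOG tags and 5.1 and 5.4 OCT4 tags.

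The highest NANOG tag count, 54.2, was in an intron of Prickle1, a planar cell polarity gene, with 13 OCT4 tags. It was 28.7 times the input there, while the next peak, 705 kb from the start of Ythdf3, had 43.4 tags and was 47.9 times the input. The others of the 10 strongest had 33.3 to 41.8 NANOG tags and lay near Sis, which codes for sucrase-isomaltase, Fgfr1, an FGF receptor gene, Foxp4, a forkhead factor gene, Pcdh15, a protocadherin gene, Tsx on the X chromosome, Vwc2, Agmo and Astn2. The nearest SIM2 peak was between 6.39 kb (Foxp4) and 518 kb (Sis) away from these 10. The highest OCT4 tag counts were 15.2 in an intron of Nckap5, 13.9 near Galnt5, 13 at Prickle1, 12.7 near 1700003H04Rik and 12 near Sis. At the other end, the peaks near Ryr2, 4930467E23Rik, Poteg and Ccdc80 had 2.3 NANOG tags each, with OCT4 tag counts of 2.5 to 4.8. Other SIM2-free peaks were tied with them at 2.3 NANOG tags, with OCT4 tag counts as low as 2.2 and as high as 7.6. The 5 strongest SIM2-bound peaks, near Ctnnd2, Cdkn2aip, Wscd1, Pcdh9 and Arid2, had 43.4 to 49.6 NANOG tags and 9.5 to 13 OCT4 tags. Apart from Prickle1, the strongest SIM2-free peaks thus lay at or below the strongest SIM2-bound ones.

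The share of OCT4-NANOG peaks that were SIM2-free fell with the level of either factor and with GC content. Over 10 groups among the 1748 peaks without Mediator, of 127 to 270 peaks each because tied values were kept together, it was 80.7% (180 of 223) where NANOG tags were lowest and 49.7% (81 of 163) where they were highest. It was 69.4% (125 of 180) in the group with the fewest OCT4 tags, stayed between 68.4% and 77.0% up to 6 OCT4 tags, and was 41.4% (65 of 157) in the group with the most. For GC content of the 200 bp window it was 85.8% (169 of 197) at 35% GC or less and 42.4% (70 of 165) at 48% or more. With each measure split at its middle, 84.4% (249 of 295) of the peaks low in all 3 were SIM2-free, against 42.2% (98 of 232) of those high in all 3.

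**Figure D2:**
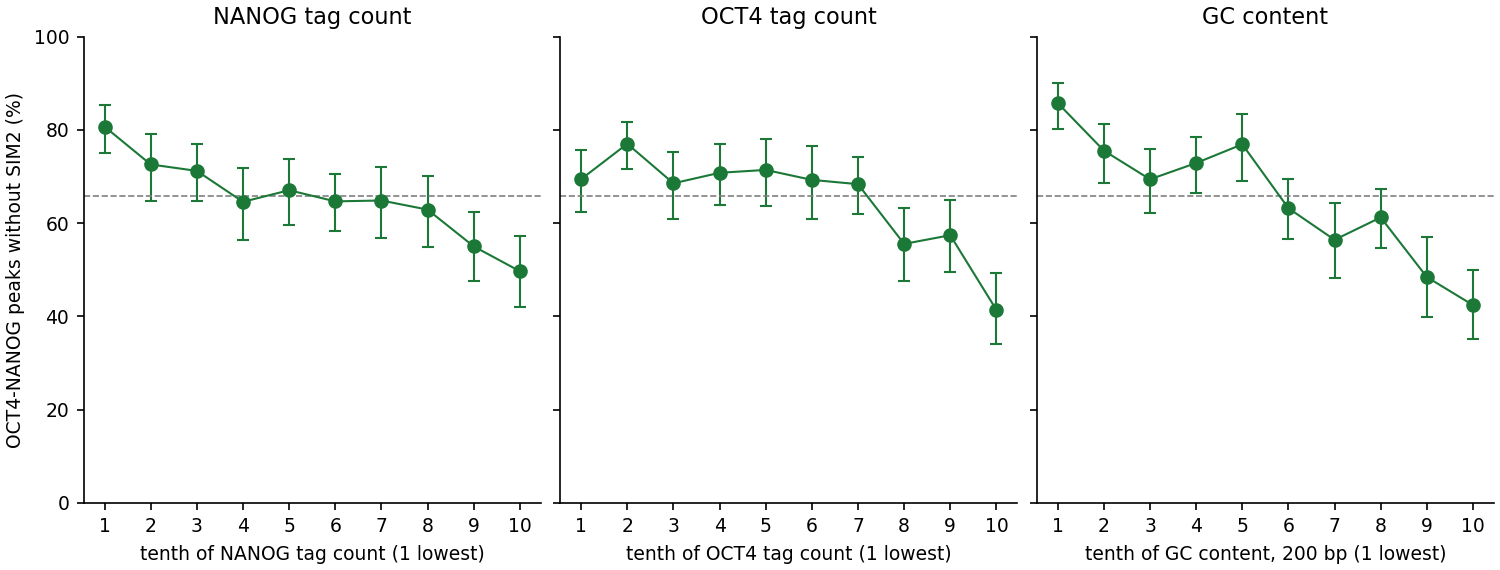
Share (%) of the 1748 OCT4-NANOG peaks without Mediator that had no SIM2 peak, in 10 groups from the lowest to the highest NANOG tag count (left), OCT4 tag count (middle) and GC content of the 200 bp window (right). Points are shares with 95% Wilson intervals and the dashed line is the share over all groups: the SIM2-free share went from 80.7% to 49.7% with NANOG and from 85.8% to 42.4% with GC content, and fell for OCT4 only in the 3 highest groups.

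SIM2-free peaks were poorer in G and C. Their GC content had a median of 41% (40.5 to 41), that of the SIM2-bound peaks 43.5% (43 to 44), and the shift was -2.5 percentage points (-3 to -2). It was -3, -2.5 and -3 points against the peaks of A6, B8 and C4, a mean of -2.83 ± 0.289 (SD, n = 3 clones). These 3 values share 1 SIM2-free set and their SIM2-bound peaks overlap, so the SD is not a spread of independent clones. The difference was strongest at the centre: it was -3 points in 100 bp, -1.4 points (-1.8 to -1) in 1000 bp and -0.87 points (-1.23 to -0.51) in 50000 bp. Sequence 10 kb to either side of the SIM2-free peaks had a median of 42%. The median GC content of the peak lists themselves was 48% for SIM2 of A6, 46% for B8 and 43.5% for C4, 43% for NANOG and 41.5% for OCT4. For the FLAG control in EB3, a list of only 81 peaks, it was 51.5%. The FLAG libraries, the control included, were thus at or above NANOG in GC, and a preference of SIM2 for such sequence and one of the FLAG libraries cannot be told apart.

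Of 13 motifs searched as exact patterns on both strands in the 200 bp windows, 4 had a difference in share whose interval excluded 0, and 1 did so after a Bonferroni adjustment over the 13. That one was the SIM-ARNT core, the ACGTG that both the midline element (TACGTG) and the E-box (CACGTG) contain. It was present in 33 of 1152 SIM2-free peaks (2.86%) and 39 of 596 SIM2-bound peaks (6.54%), a difference of -3.68 points (-6.10 to -1.62). All NANOG peaks held it at 5.41%, and windows 10 kb from the SIM2-free peaks at 7.68%. The SIM2-free peaks thus held it less often than these windows and than all NANOG peaks. The SIM2-bound share, too, was below that of these windows, and windows beside SIM2-bound peaks were not measured. The core contains the dinucleotide CG, of which SIM2-free windows held a mean of 1.28 and SIM2-bound windows 1.67. The part of CG frequency in the core difference was not tested. By the number of clones with a SIM2 peak, the share rose from 2.86% at 0 clones to 4.45% at 1, 6.88% at 2 and 11.3% at 3, and the intervals at 0 and at 3 clones (2.05 to 4.00 and 6.73 to 18.4) did not overlap. Within 4 groups of GC content the core was less frequent in SIM2-free peaks each time, and the interval excluded 0 in the lowest group (2.61% against 8.82%) and in the highest (1.47% against 7.18%). The full midline element, the SIM target known from Drosophila, was too rare to compare, at 8 SIM2-free and 6 SIM2-bound peaks.

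The OCT4-SOX2 composite went the other way. It was present in 167 SIM2-free peaks (14.5%, 12.6 to 16.6) and 60 SIM2-bound peaks (10.1%, 7.90 to 12.7), a difference of 4.43 points (1.14 to 7.48). All NANOG peaks held it at 5.49% and windows 10 kb away at 0.521%. With SIM2 in 1, 2 and 3 clones it was present in 32 of 292, 19 of 189 and 9 of 115 peaks. In wider windows of 400 bp it gave 200 matches in 192 SIM2-free peaks, of which 64.5% lay within 50 bp of the NANOG centre, and 66 matches in 65 SIM2-bound peaks, of which 57.6% did. The octamer (ATGCAAAT), which OCT4 binds without SOX2, had nearly the same share in both sets, 12.3% and 12.1%, with an interval of -3.12 to 3.37 points for the difference. Sites of TEAD factors (CATTCC) were less frequent at SIM2-free peaks, 14.3% against 18.3% (-7.78 to -0.36 points), as was the ZIC-like pattern (CCTGCTG), 8.42% against 11.7% (-6.52 to -0.40 points). Over all NANOG peaks the shares were 14.6% for TEAD and 13.8% for the ZIC-like pattern, so the TEAD share of SIM2-free peaks was close to that of all peaks. Both depended on the settings: in 100 bp windows the TEAD difference was 0.777 points (-2.01 to 3.30), and among peaks without repeated sequence the ZIC-like interval held 0 (-6.07 to 0.23). For the SOX, homeodomain, KLF, ESRRB, STAT and AP-1 patterns, the midline element and the E-box, the interval held 0.

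**Figure D3:**
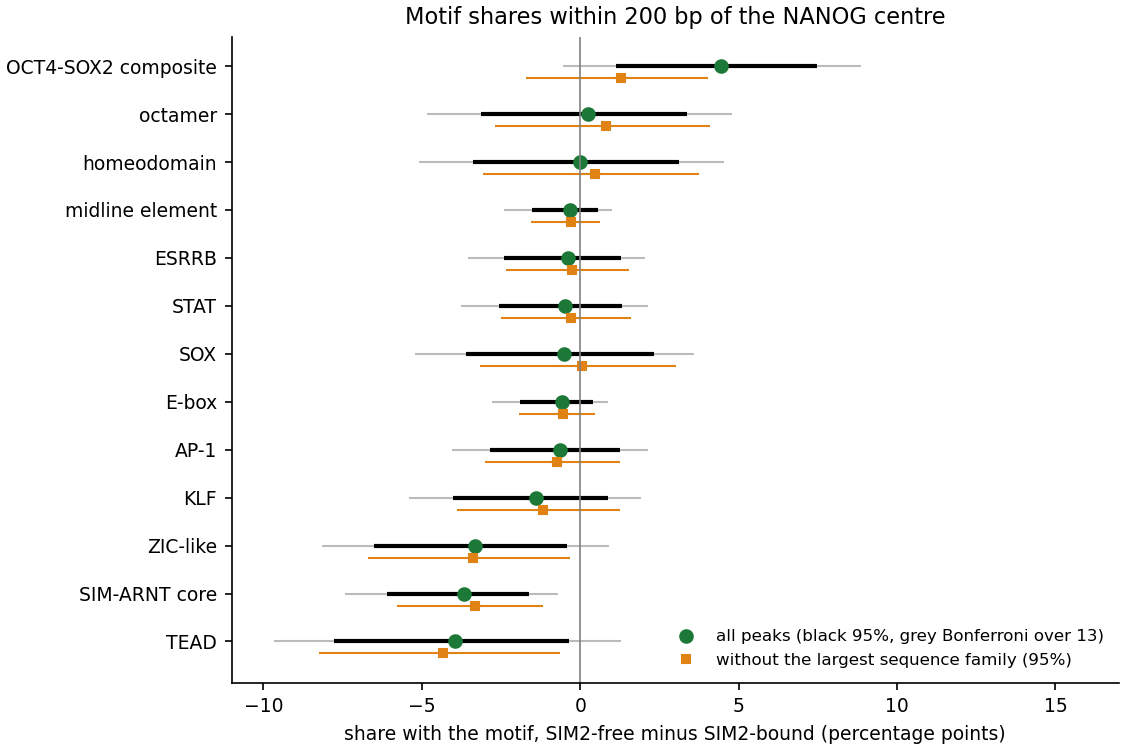
Difference in the share of peaks with each of 13 motifs, SIM2-free minus SIM2-bound, in percentage points. Green points are all peaks with the 95% interval in black and the Bonferroni interval in grey, and orange squares leave out the largest sequence family: the SIM-ARNT core (-3.68 points) excluded 0 in every version, and the composite (4.43 points) came to 1.28 points without that family.

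**Figure D4:**
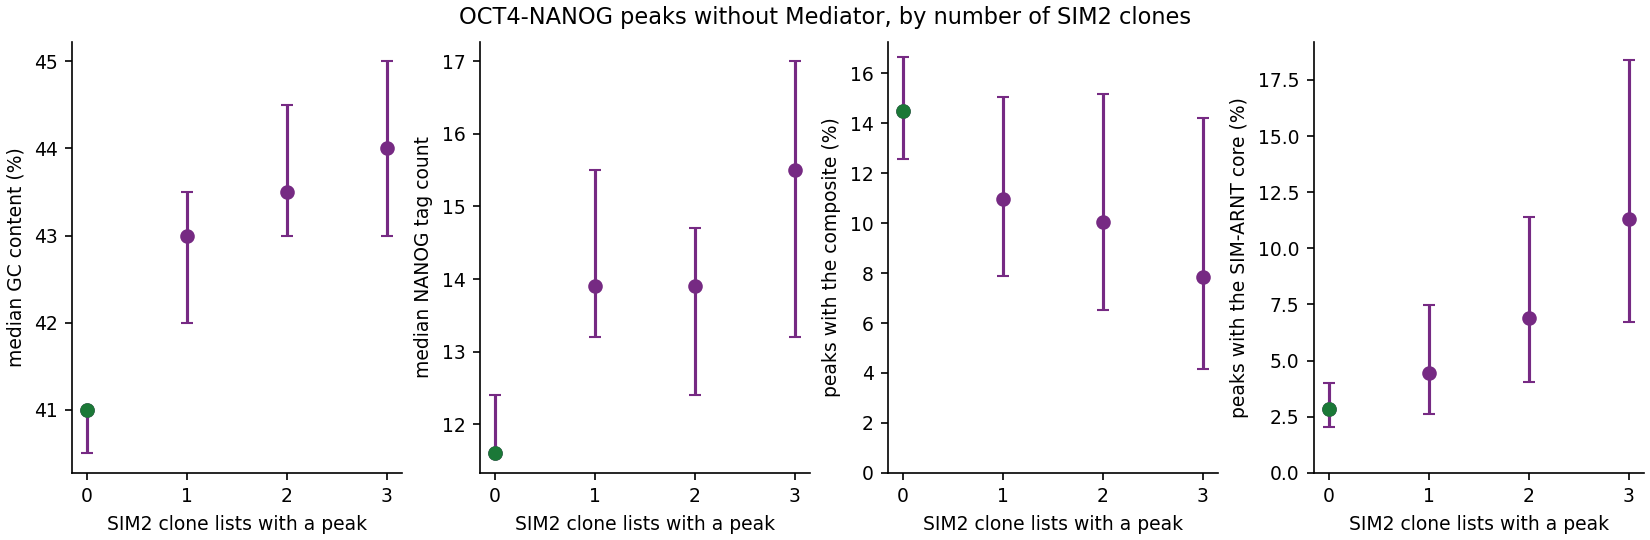
Median GC content (%), median NANOG tag count, and share of peaks (%) with the OCT4-SOX2 composite and with the SIM-ARNT core, for OCT4-NANOG peaks without Mediator that had SIM2 in 0 (green, 1152 peaks), 1, 2 or 3 (purple; 292, 189 and 115 peaks) of the clone lists, with 95% intervals. From 0 to 3 clones the median GC content went from 41% to 44%, the composite from 14.5% to 7.83% and the core from 2.86% to 11.3%.

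The composite difference moved with repeated sequence. OCT4-NANOG peaks were joined into families where their windows shared a word of 25 bases, leaving out words of low complexity. Of the SIM2-free peaks 265 (interval 20.7 to 25.5%) shared a word with another OCT4-NANOG peak, as did 93 SIM2-bound peaks (12.9 to 18.7%). The largest family held 145 peaks on 20 chromosomes: 93 SIM2-free, 20 SIM2-bound and 32 with Mediator. Of these 145, 106 held the composite, with A at its free position in 102. Aligned on the composite without gaps over 129 bases, 38 of the 106 copies matched the most frequent base at 80% or more of the positions, and the median was 66.7%. A word of 25 bases around the composite, printed here in lower case throughout as it stands in the peak near Ahr, occurred in 41 of the 145, of which 26 were SIM2-free and 7 SIM2-bound.
family 1, near Ahr, chr12:36327428-36327452, + strand: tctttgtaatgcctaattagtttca

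Members of this family accounted for 67 of the 167 SIM2-free peaks with the composite (40.1%, 33.0 to 47.7) and for 13 of the 60 SIM2-bound ones (21.7%, 13.1 to 33.6). Outside the family the composite was present at 9.44% of SIM2-free and 8.16% of SIM2-bound peaks, a difference of 1.28 points (-1.71 to 4.03) whose interval held 0. Within the family it was present at 72.0% of the SIM2-free and 65.0% of the SIM2-bound peaks. The SIM-ARNT core was found in 0 of the 93 SIM2-free copies, with an upper Wilson bound of 3.97%, and in 2 of the 20 SIM2-bound ones, and outside the family its difference was -3.31 points (-5.78 to -1.19). The shifts of NANOG and OCT4 without the family were -0.29 and -0.16 on the log2 scale, and that of GC content -2.5 points.

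Of the 113 copies without Mediator, 82.3% (74.2 to 88.2) were SIM2-free, against 64.8% (62.4 to 67.0) of the 1635 other OCT4-NANOG peaks, a difference of 17.5 points (9.15 to 23.9). Each clone showed fewer SIM2 peaks in the family: A6 at 10.6% of the copies against 28.9% elsewhere, B8 at 12.4% against 23.7%, and C4 at 1.77% against 7.77%, a mean difference of -11.9 ± 6.18 points (SD, n = 3 clones). The family's SIM2-free peaks had NANOG tag counts of 3.1 to 28.7 (median 13.2) and OCT4 tag counts of 2.9 to 9.5 (median 4.8), and its SIM2-bound peaks medians of 14.7 and 5.7. No copy lay in a promoter and 81.7% of the SIM2-free ones were intergenic. GC content was 40% and 40.5% in the SIM2-free and the SIM2-bound copies, close to the value of SIM2-free peaks elsewhere (41%) and below that of SIM2-bound peaks elsewhere (43.5%). In 61.3% of the SIM2-free and 60% of the SIM2-bound copies, at least 50% of the 25-base words of the window occurred elsewhere in the genome too. Over all SIM2-free peaks such windows made up 8.42%, against 5.20% of the SIM2-bound (difference 0.67 to 5.53 points) and 7.80% of all NANOG peaks, so that it was the SIM2-bound set that lay apart from all peaks. The part of read mapping in the family's SIM2 share was not tested.

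Other families were smaller. The next held 86 peaks, 45 SIM2-free and 21 SIM2-bound, with a SIM2-free share of 68.2% (56.2 to 78.2) and no composite. The fourth in size held 32 peaks, of which 24 carried the composite, and its SIM2-free share was 72.0% (52.4 to 85.7). Neither share differed from that of the other peaks beyond its interval (-9.81 to 12.6 and -13.5 to 20.1 points). A family of 12 peaks was SIM2-free throughout, 12 of 12 (75.8 to 100%), at a median of 8.5 NANOG tags. It was the extreme among 16 families of 5 or more peaks, and others went the opposite way, such as a family of 8 peaks with 1 SIM2-free and 4 SIM2-bound. The most widely held word of the families of 86 and 32 peaks, present in 32 and 9 of their peaks, follows in lower case, read on the + strand. That of the fourth family holds the composite on its other strand.
family 2, near Gm13318, chr2:15939552-15939576, + strand: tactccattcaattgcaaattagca
family 4, near 4921513D11Rik, chr17:80053789-80053813, + strand: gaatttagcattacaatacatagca

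**Figure D5:**
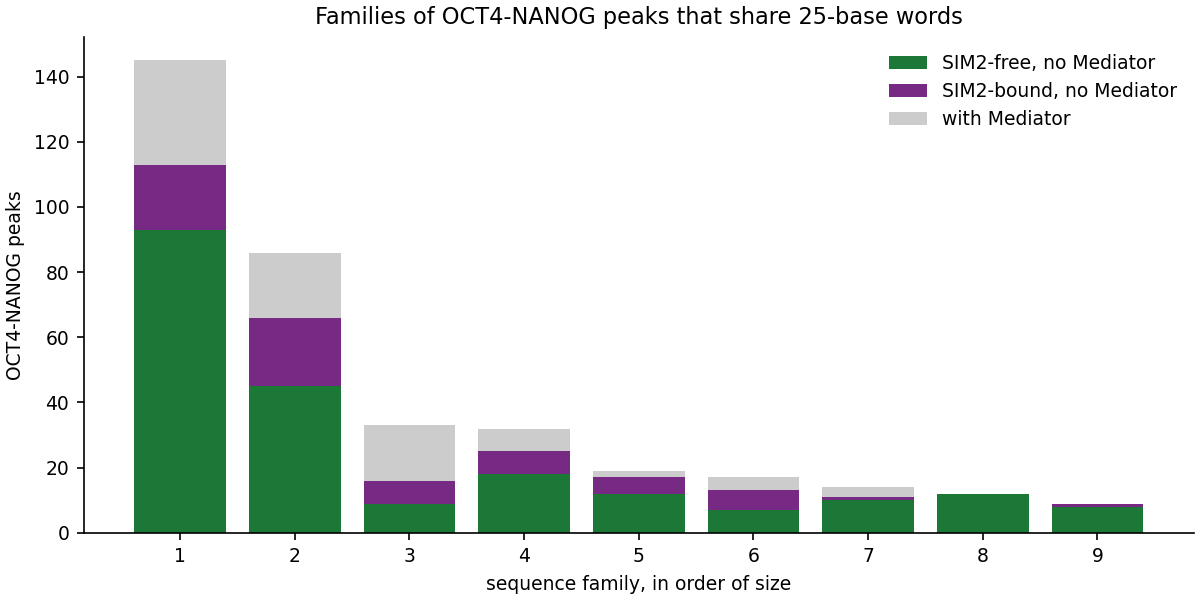
Number of OCT4-NANOG peaks in the 9 largest families of shared 25-base words, stacked as SIM2-free without Mediator (green), SIM2-bound without Mediator (purple) and with Mediator (grey). The largest family holds 93, 20 and 32 peaks of the 3 kinds, and the eighth is SIM2-free in all 12.

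The features were fitted together in a logistic regression of SIM2 absence over the 1748 peaks without Mediator. The odds of being SIM2-free fell to 0.253 times (0.199 to 0.321) for each 10 points of GC content, to 0.432 times (0.328 to 0.568) for each 2-fold rise in OCT4 tags and to 0.667 times (0.568 to 0.784) for each 2-fold rise in NANOG tags. They were 1.52 times as high (1.09 to 2.11) with the composite and 0.731 times (0.549 to 0.973) with a TEAD site, while the intervals of the octamer (0.787 to 1.51), the KLF pattern and the promoter held 1. With a term for the largest family, the composite came to 1.29 (0.892 to 1.86) and the family itself to 1.73 (0.990 to 3.04), so that neither interval excluded 1 and the 2 could not be separated at this number of peaks. When the SIM-ARNT core and the ZIC-like pattern were added, the core had an odds ratio of 0.344 (0.205 to 0.578) and the ZIC-like pattern 1.04 (0.732 to 1.48).

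In the genome, SIM2-free peaks were distal like most NANOG peaks. By GENCODE protein-coding transcripts, 23 (2.00%) lay in a promoter, from 1 kb upstream to 300 bp downstream of a start, 12 (1.04%) in another exon, 402 (34.9%) in an intron and 715 (62.1%) between genes. SIM2-bound peaks had 2.35% in promoters (difference -2.04 to 1.01 points) and 56.5% between genes (difference 0.68 to 10.4 points). The median distance to a start was 37571 bp for the SIM2-free and 37754 bp for the SIM2-bound peaks. The centres of NANOG and OCT4 were a median of 27.5 bp apart at SIM2-free and 26 bp at SIM2-bound peaks, and the shift of 1 bp had an interval of -2 to 3 bp. Between 1 and 10 kb away, 6.60% of SIM2-free peaks had a SIM2 peak, against 5.54% of SIM2-bound ones (-1.44 to 3.29 points), 3.21% against 4.19% had Mediator, and 26.1% against 25.5% had another NANOG peak. None of these 3 differences excluded 0. Against all SIM2-bound peaks, those with Mediator included, the SIM2-free peaks had fewer SIM2 peaks at 1 to 10 kb, by -4.90 points (-7.35 to -2.52).

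Some genes of the pluripotency network had SIM2-free peaks in their neighbourhood. Over all protein-coding genes, 1197 of 22202 (5.39%) had at least 1 SIM2-free peak within 50 kb of a transcript start, and 575 (2.59%) had a SIM2-bound peak. Of the pluripotency genes 4 of 25 had one, and of the genes of the formative and primed states 5 of 15. The counts were 2 of 25 for lineage factors, 2 of 22 for signalling genes, 1 of 6 for Polycomb genes and 1 of 12 for bHLH-PAS genes. SIM2-bound peaks were found near 3 of 15 formative and primed genes, 1 of 25 lineage factors and 2 of 6 Polycomb genes. For signalling and bHLH-PAS genes the SIM2-bound count was 0. These lists are short, were chosen with earlier results of the data known, and take neighbouring genes as separate, so the counts are a description. SIM2-bound peaks stood within 50 kb of 5 pluripotency genes, Sox2, Klf5, Sall4, Dppa5a and Rif1, so that Klf5 had both kinds, as did Zic2, Zic5 and Grhl2.

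The pluripotency gene closest to a SIM2-free peak was Dppa3, which codes for the maternal factor Stella. The peak lay 1720 bp upstream of its start (chr6:122574625-122574791), held an octamer, and had 15.5 NANOG and 7 OCT4 tags, with the nearest SIM2 peak 15.9 kb away. The same peak was 14603 bp from Gdf3, a TGF-beta family ligand. Klf5, a Krüppel-like factor of naive ES cells, had 2 such peaks upstream, at 20030 bp (5.4 NANOG and 5.7 OCT4 tags) and at 31895 bp (10.1 and 4.8 tags), the latter with an octamer and a composite. Mycn, a MYC family gene, had one at 45684 bp with 10.8 NANOG and 6 OCT4 tags. The fifth peak by distance to a pluripotency gene start, with 15.5 NANOG tags, was nearest to Glrx5 and lay 135125 bp from Tcl1.

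Among the formative and primed genes, Dnmt3b, a de novo DNA methyltransferase, had SIM2-free peaks 6237 and 26821 bp upstream, both with a TEAD site and with 10.8 and 11.6 NANOG tags, of which the nearer lay only 1.20 kb from a SIM2 peak. Foxd3 had one 20079 bp upstream (22.5 NANOG and 3.5 OCT4 tags). A single peak lay 2401 bp upstream of Zic5 and 7304 bp upstream of its neighbour Zic2 (11.6 NANOG and 4.1 OCT4 tags). In an intron of Grhl2, an epithelial factor, a peak of 17.8 NANOG tags lay 0.893 kb from a SIM2 peak. Of the lineage factors, Pax6 and Meis2 each had a peak of 6.2 NANOG tags 1897 and 2378 bp downstream of a start. Of the signalling genes, Skil, a repressor of TGF-beta signalling, had one 5485 bp upstream with both the composite and the midline element, with the nearest SIM2 peak 71.6 kb away, and Bmp4 had one 22003 bp upstream. The Polycomb gene Suz12 had one 12327 bp upstream with 18.6 NANOG and 7.6 OCT4 tags and a composite. Clock, a bHLH-PAS gene of the circadian system, had one in an intron 18676 bp downstream of a start, with 10.8 NANOG tags.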

How the data were processed

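Peak lists of ChIP-seq in mouse ES cells were used, 8 in all: SIM2 through its FLAG tag in 3 clones, the same antibody in EB3, and both pluripotency factors and both Mediator subunits in A6. The authors aligned the reads with BWA on mm9. Peaks were then called with HOMER for each library against its input, with versions not given in the sources used here. The normalized tag count is a signal that the authors' peak caller scaled to library size. The deposited folds over the input and over the local background are a ratio, and the deposited focus ratio is a fraction. Other lists of the series and the inputs were not analysed here.

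Peaks were joined by the gap between intervals, up to 100 bp. Shares carry 95% Wilson intervals, differences of shares Newcombe intervals, shifts Hodges-Lehmann estimates with rank intervals, and the logistic regression Wald intervals. No p-value was computed over peaks, which are not replicates. The 3 clones are the replicates of SIM2. GENCODE vM1 on NCBIM37 gave genes (105 of 107 list genes matched), and motifs were exact patterns. A family joins OCT4-NANOG peaks whose 200 bp windows share a 25-base word with at least 10 different 3-base words. Peaks named are the 10 with the most NANOG, 5 with the most OCT4 and 5 with the fewest NANOG tags (among more peaks tied at that count), the 5 nearest to a pluripotency gene, the 5 strongest SIM2-bound peaks, and peaks near listed genes, none on chromosome 18. One peak that this rule names and the sequence of another are not reported here. The other peaks whose sequences are shown were taken by tag count among those with the motif, apart from peaks whose sequence is given with the families. The family copies with the composite were taken by tag count among the more alike ones. Members and lists were chosen with earlier results of these data known.

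Regressions were fitted with statsmodels 0.14.6, intervals computed with scipy 1.17.1, sequences read with pysam 0.24.0 and figures drawn with matplotlib 3.10.9, on pandas 2.3.3 and numpy 2.4.6 under Python 3.11.15. The steps were tested on simulated data. Alternatives covered the window, the clone lists, the comparison set, the motif window, the promoter and the annotation. GC content as a result, the SIM-ARNT core and ZIC-like terms, the sequence families and the repeated windows were added after seeing the data.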

Additional observations from a re-analysis of the deposited data

How the results depend on the processing

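The 17 results were recomputed under the alternatives, 169 values in all, of which 144 kept the direction and the side of the interval or, for counts, stayed within 1.5 times the count reported. The shifts of NANOG, OCT4 and GC content kept theirs under each of these alternatives, between -0.49 and -0.22, -0.28 and -0.13 (log2) and -3 and -2.25 points. NANOG as fold over the local background (-0.11) and GC content in wider windows (-0.87 points in 50000 bp) gave smaller shifts. The SIM-ARNT core difference lay between -5.37 and -2.72 points and excluded 0 each time.

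The number of SIM2-free peaks was 61 when NANOG and OCT4 peaks had to reach 8 times the input, and 1153 to 1336 when 1 SIM2 clone was left out. It was 1444 when a SIM2 site had to be present in at least 2 clones. Genes with a member nearby numbered 505 within 20 kb and 2150 within 100 kb. Without peaks of repeated sequence, 2 motifs differed. The odds ratio of NANOG with the C4 list alone was 0.792 (0.598 to 1.05). That of the composite was 1.41 with the B8 list alone, 1.81 with the C4 list alone, 1.24 without the largest family and 1.35 without repeated sequence, each with an interval holding 1. The TEAD difference was 0.777 points in 100 bp windows. The promoter difference was 0.546 points without clone A6 and -1.04 points without B8. The difference in neighbouring SIM2 peaks was -4.90 points (-7.35 to -2.52) against all SIM2-bound peaks, Mediator included, and -3.86 points to 50 kb, and ranged from 0.175 to 2.36 points when 1 clone was left out, excluding 0 without A6 (0.133 to 4.05). The cause of these changes was not tested. No paired analysis was possible because the NANOG and OCT4 values used come from 1 library each and the peaks compared carry no replicate numbers.

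The reach of the clone lists limits the set itself: a site below it counts as SIM2-free. The lists of A6, B8 and C4 held 2387, 2137 and 631 peaks, and their steps correspond to 23.3, 14.7 and 13.6 M tags. Leaving out C4 gave 1153 SIM2-free peaks in place of 1152. The part of depth in these list sizes was not tested. All OCT4 and NANOG values come from 1 culture of A6.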

Other observations

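By chromosome, the SIM2-free share of OCT4-NANOG peaks without Mediator ranged from 56.9% (62 of 109, chromosome 4) to 78.9% (30 of 38, chromosome X), and the Wilson interval for X was 63.7 to 88.9%. Of the 1197 genes with a SIM2-free peak within 50 kb, 47 had 2 such peaks, 1 had 3 and 1 had 4.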
